A study of Arabidopsis thaliana with 12 samples.

Results

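Growth stages 1.14 and 1.05 of the rosette were compared for transcript levels in Arabidopsis thaliana with an RNA interference (RNAi) construct against SPH1. Rosette leaves were sampled. The comparison rests on 3 arrays of SPH1 RNAi at stage 1.14 against 3 arrays of SPH1 RNAi at stage 1.05, chosen by the source names of the samples, so 6 of the 12 arrays of the series are its members. The other 6 arrays, 3 of Col-0 at each of the same stages, are used to set the same stage change beside it and to give the spread. RNA interference lowers the mRNA whose sequence matches an introduced double-stranded RNA, and SPH1 is an S-protein homologue, a small secreted plant protein. The comparison asks which transcripts differ between young and older rosettes when the construct is present. Growth stages are those of the scale that counts the leaves of the rosette, so stage 1.14 is the later one.

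Col-0 is the accession, a laboratory strain, that served as the control without the construct. SPH1 RNAi at stage 1.14 replicate 3 does not carry the RNAi tag of its group in the labels, so its source name and title place it there. Replicates 2 and 3 of that group are marked in their titles as repeated hybridisations. The greenhouse was held at 20 °C with 80% humidity and light for 16 h a day, and the RNA on an array came from 40 pooled plants. The sources used here do not give the number of independent RNAi lines, the promoter of the construct or the hour of harvest. SPH1 itself has no probe set in the annotation used here, and the knockdown could therefore not be checked. Of the leaf markers only RCA, which encodes Rubisco activase, was measured, and its signal lay between 2857 and 4667 on the 6 SPH1 RNAi arrays. In pooled leaves, fewer cells of a type and less RNA per cell cannot be told apart.

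A rosette leaf first grows by cell division and expansion, makes stomata and trichomes, and builds its chloroplasts. Later it becomes a source that exports sugar made by day and released from starch by night. As it ages, its cells recycle proteins through autophagy and vacuolar proteases, and many stress-responsive and clock-controlled genes change their level. Many transcripts of cold response, starch breakdown and flavonoid synthesis also follow a daily rhythm in this plant.

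The values are intensities brought to a common level on each array, and they were tested as log2 of the signal plus 16 with limma, over the 13263 probe sets whose mean signal was at least 32 on the 12 arrays. The threshold was an adjusted p (Benjamini-Hochberg) under 0.05, and "rose" and "fell" are used only of genes that passed. Between stage 1.05 and stage 1.14, 1358 probe sets passed in SPH1 RNAi, which is 10.2% of those tested. Of these 767 rose (5.78%) and 591 fell (4.46%), with a median log2 change of 0.89 among the rises and -0.79 among the falls. The change was at least 2-fold for 300 of the rises and 167 of the falls, together 3.52% of those tested. Over all probe sets tested the median log2 change was 0.02. All p-values rest on the spread between these arrays alone; nothing in the labels says whether the pools of plants were grown separately. The 3 arrays of stage 1.14 all lay above or all lay below the 3 of stage 1.05 in 1346 of the 1358, and in 3927 (29.6%) of all probe sets tested. Of the 1358, 644 have exactly 1 gene in the annotation used here, and 107 of those have a gene symbol.

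Among the older SPH1 RNAi rosettes, replicate 1 stood apart. Its signals correlated across the tested probe sets at 0.894 and 0.904 with replicates 2 and 3, which correlated at 0.969 with each other, while the 3 arrays of stage 1.05 correlated at 0.944 to 0.972. On it 866 probe sets lay at least 2-fold from the mean of the other replicates, against 254 and 131 for replicates 2 and 3. At stage 1.05 replicate 1 had 382 such probe sets, and replicates 2 and 3 had 128 and 65. Without stage 1.14 replicate 1, 1082 probe sets passed (8.16%), 592 of them higher and 490 lower at stage 1.14, and 846 were shared with the fit on all arrays, which is 62.3% of the calls with that array and 78.2% of the calls without it. Without stage 1.05 replicate 1 the count was 669, and 579 of these were among the 1358. Of the genes chosen by size of change or from the gene lists 100 passed, and 50 of these passed whichever single array of the 12 was left out, while 23 did not pass without stage 1.14 replicate 1 and 41 did not without stage 1.05 replicate 1. As a measure of RNA integrity, actin control probe sets from the 3′ end exceeded those from the 5′ end by 2.04 ± 0.78 (SD, n = 3) on the log2 scale at stage 1.05. At stage 1.14 this difference was 1.23 ± 0.33 (exact permutation test, two-sided, p = 0.3; with 3 arrays against 3 the smallest possible p is 0.1). The average background of the arrays was 72.8 ± 5.9 at stage 1.05 and 99.1 ± 32.8 at stage 1.14 (SD, n = 3, exact permutation p = 0.2), with 136.5 on stage 1.14 replicate 3. The part of RNA integrity and background in the results was not tested.

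**Figure D1:**
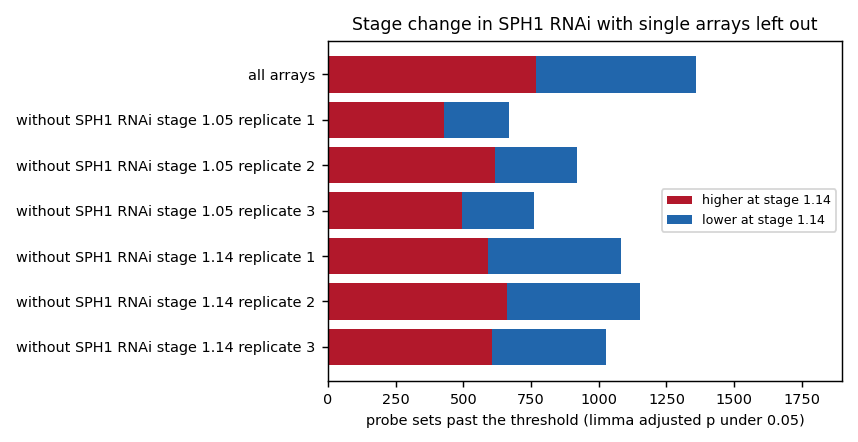
Bars give the number of probe sets past the threshold for the change from stage 1.05 to stage 1.14 in SPH1 RNAi, higher in red and lower in blue, with all arrays and with single SPH1 RNAi arrays left out. The count was 1358 with all arrays and between 669 and 1152 with a single array left out.

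A chloroplast cold protein and a pair of dehydrins rose with stage in SPH1 RNAi. Of 6 tested genes in the list for cold, drought and ABA response, 3 rose and none fell, where 5.78% of all probe sets rose, with a median log2 change of 1.01 (1.29 without stage 1.14 replicate 1, again with 3 rises). COR15B, a chloroplast protein that protects membranes during freezing, had a signal of 58.0, 69.1 and 54.0 at stage 1.05 and 216, 489 and 515 at stage 1.14, replicates 1, 2 and 3 in this order here and below. All 3 older rosettes lay well above the younger ones, with replicate 1 the lowest of them (log2 change 2.38 ± 0.30 SE, limma adjusted p = 0.000692). COR47, a dehydrin, had 144, 170.3 and 172 at stage 1.05 and 619.5, 406 and 453 at stage 1.14, and here replicate 1 was the highest of the older rosettes (log2 change 1.497 ± 0.18 SE, limma adjusted p = 0.000481). The dehydrin LTI30 went from 20.9, 37.7 and 36.3 to 83.0, 83.6 and 109, with no overlap between stages (log2 change 1.19 ± 0.18 SE, limma adjusted p = 0.00259). COR15A, the close relative of COR15B, had 40.3, 116 and 78.2 at stage 1.05 and 28.2, 195 and 227 at stage 1.14. Replicate 1 of stage 1.14 had the lowest signal of the 6 arrays, the stages overlapped, and the change of 0.56 ± 0.64 did not pass (limma adjusted p = 0.608). The zinc finger repressor STZ (0.83) and HVA22C (-0.30) did not pass either. The osmotin OSM34, a defence-related protein of the thaumatin family, rose from 14.3, 53.0 and 83.2 to 493, 212 and 280.0 (log2 change 2.46 ± 0.51 SE, limma adjusted p = 0.012). COR15B, COR47, LTI30 and OSM34 passed whichever single array was left out.

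**Figure D2:**
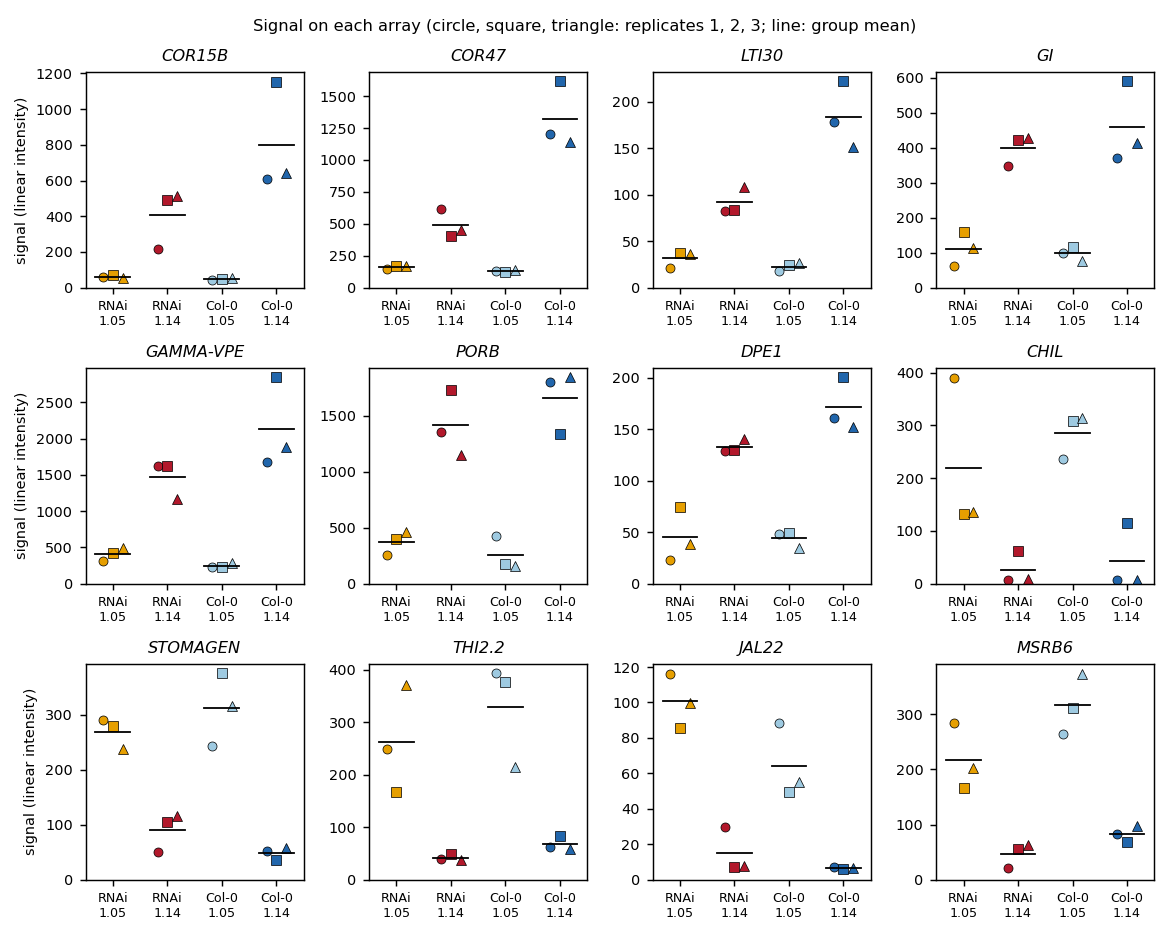
Each panel shows the signal (linear intensity) of 1 gene on the 12 arrays, with a circle, square and triangle for replicates 1, 2 and 3 and a line for the group mean. In each of the 12 genes the SPH1 RNAi arrays of the 2 stages do not overlap; COR47 reached 619.5, 406 and 453 in SPH1 RNAi at stage 1.14 and 1205, 1615 and 1141 in Col-0.

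Only 2 genes of the circadian clock list were tested, and both rose, where 5.78% of all probe sets rose. GI, which encodes GIGANTEA, a protein of the clock and of day-length sensing, had 62.7, 160.1 and 113 at stage 1.05 and 347, 422 and 428 at stage 1.14 (log2 change 1.77 ± 0.27 SE, limma adjusted p = 0.00237). Even the lowest older rosette was far above the highest younger one, and the call held whichever array was left out. CCL, a clock-controlled gene of unknown function, had 95.9, 845 and 782 at stage 1.05 and 2725, 2302 and 1891 at stage 1.14. Replicate 1 of stage 1.05 was far below the other younger rosettes (log2 change 2.43 ± 0.59 SE, limma adjusted p = 0.0248), and without stage 1.14 replicate 1 the change was 2.31 (not passed without stage 1.14 replicate 1 or 2, with adjusted p up to 0.055). COR27, an evening-expressed regulator of the clock and of freezing tolerance that is outside the list, was between 0.9 and 1.9 in young rosettes and reached 148, 42.3 and 45.7 in older ones (log2 change 2.26 ± 0.32 SE, limma adjusted p = 0.00148). Replicate 1 carried the highest of these signals, and without it the change was 1.77 and still passed.

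A vacuolar protease, a senescence regulator and 4 autophagy genes rose. Of 16 tested genes in the senescence list 6 rose and none fell, where 5.78% of all probe sets rose, and 14 of 16 changes were positive, with a median of 0.57 against 0.02 over all probe sets. Without stage 1.14 replicate 1 the list had 5 rises and a median of 0.42. GAMMA-VPE, a vacuolar processing enzyme that cuts and activates other vacuolar proteins, had 314, 423 and 492 at stage 1.05 and 1621, 1622 and 1169.5 at stage 1.14 (log2 change 1.81 ± 0.22 SE, limma adjusted p = 0.000628), so the older rosettes were 3.51-fold higher on the scale of signal plus 16. WRKY53, a transcription factor that promotes leaf senescence, went from 73.7, 61.9 and 46.0 to 195, 99.1 and 149 (log2 change 1.07 ± 0.24 SE, limma adjusted p = 0.0178; not passed without stage 1.05 replicate 3, with adjusted p up to 0.0642). The other 4 rises were ATG8 genes, which encode the ubiquitin-like protein that is anchored in the autophagosome membrane. APG8A had 155, 174 and 161 at stage 1.05 and 309.6, 254 and 268 at stage 1.14 (log2 change 0.70 ± 0.15 SE, limma adjusted p = 0.0145), and it passed whichever array was left out. ATG8F had 480.0, 517 and 588 at stage 1.05 and 920.3, 854 and 707 at stage 1.14 (log2 change 0.63 ± 0.14 SE, limma adjusted p = 0.0183; not passed without stage 1.05 replicate 1, with adjusted p up to 0.0643). APG8H had 339.6, 456 and 452 at stage 1.05 and 703, 614 and 662 at stage 1.14 (log2 change 0.65 ± 0.16 SE, limma adjusted p = 0.0224; not passed without stage 1.05 replicate 1 or stage 1.14 replicate 3, with adjusted p up to 0.0789). The stages did not overlap in either gene. ATG8H rose by 0.49 ± 0.14 (limma adjusted p = 0.0427; not passed without stage 1.05 replicate 1 or 2 or any 1 of the 3 replicates of stage 1.14 or 1 of 4 Col-0 arrays, with adjusted p up to 0.127). The other ATG8 genes did not pass, with positive changes of 0.57 in ATG8B, 0.33 in ATG8C, 0.57 in ATG8D, 0.72 in ATG8E and 0.39 in ATG8G. SAG101, a lipase-like protein of immunity and senescence, had 0.42 and did not pass.

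The enzyme genes DPE1, AMY1 and PWD of the sugar and starch list rose, as did a vacuolar sugar transporter. Of the 14 tested genes in the sugar and starch list 4 rose and 1 fell, where 5.78% and 4.46% of all probe sets did, with a median of 0.25 (0.49 without stage 1.14 replicate 1, with 4 rises and no fall). DPE1, the chloroplast disproportionating enzyme that works on maltotriose, had 23.0, 74.4 and 38.4 at stage 1.05 and 129, 129.8 and 141 at stage 1.14 (log2 change 1.37 ± 0.24 SE, limma adjusted p = 0.00582). AMY1, an alpha-amylase, had 61.5, 115 and 99.4 at stage 1.05 and 238, 213 and 267 at stage 1.14 (log2 change 1.27 ± 0.22 SE, limma adjusted p = 0.00575). In both genes every older rosette was above every younger one, and both calls held whichever array was left out. PWD, the phosphoglucan water dikinase that opens starch granules to degradation, had 157, 201 and 148 at stage 1.05 and 258, 365 and 394 at stage 1.14 (log2 change 0.94 ± 0.22 SE, limma adjusted p = 0.0197; not passed without stage 1.05 replicate 1 or 3 or stage 1.14 replicate 3, with adjusted p up to 0.0676). TMT1, which loads monosaccharides into the vacuole, rose by 0.79 ± 0.18 (limma adjusted p = 0.0171; not passed without stage 1.05 replicate 2, with adjusted p up to 0.0563). The vacuolar invertase AT1G62660 fell by 0.61 on the log2 scale, from 66.1, 57.9 and 65.2 to 34.5, 28.5 and 45.7 (limma adjusted p = 0.0313; not passed without any 1 of the 3 replicates of stage 1.05 or stage 1.14 replicate 1 or 2, with adjusted p up to 0.0892). The SWEET sugar transporters went both ways without passing, from -0.76 in SWEET2 to 0.62 in SWEET13.

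In the low-oxygen list 3 of 25 genes were tested. PDC2, a pyruvate decarboxylase of ethanol fermentation, had 51.9, 157 and 195 at stage 1.05 and 634, 471 and 306 at stage 1.14, with the highest signal on replicate 1 of stage 1.14 (log2 change 1.79 ± 0.36 SE, limma adjusted p = 0.0108). AT1G33055 had 3.8, 3.0 and 4.6 at stage 1.05 and 429, 21.9 and 36.6 at stage 1.14, so its change of 2.28 ± 0.65 (limma adjusted p = 0.0433; not passed without any 1 of the 3 replicates of stage 1.05 or 1 of 5 Col-0 arrays, with adjusted p up to 0.109) rested for its size on 1 array. Its mean over the other 11 arrays was 8.28, so it entered the test only through that array, and its call adds no support. AT4G10270 had 84.5, 43.6 and 32.7 at stage 1.05 and 593, 75.6 and 91.8 at stage 1.14, with replicate 1 again far above the rest, and did not pass (1.46 ± 0.58, limma adjusted p = 0.126).

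A pair of gibberellin receptors, an ethylene regulator and a pair of immune signalling genes rose by small amounts, and none of these calls held with every array left out in turn. Over all probe sets tested, 5.78% rose. GID1A and GID1C, 2 of the 3 gibberellin receptors, rose by 0.59 ± 0.15 and 0.63 ± 0.15 (limma adjusted p = 0.0296 and 0.0257). GID1B had 0.57 ± 0.17 and did not pass (adjusted p = 0.0515). GID1A had 78.0, 121 and 111 at stage 1.05 and 171, 155 and 159 at stage 1.14. The stages did not overlap. GID1A did not pass without stage 1.05 replicate 1 or 3 or stage 1.14 replicate 1 or 3, with adjusted p up to 0.0922, and GID1C did not pass without stage 1.05 replicate 1 or 3 or stage 1.14 replicate 1, with adjusted p up to 0.0889. EIN3, the transcription factor at the end of the ethylene pathway, had 205, 234 and 259 at stage 1.05 and 425, 435 and 307 at stage 1.14 (log2 change 0.69 ± 0.17 SE, limma adjusted p = 0.0291; not passed without stage 1.05 replicate 1 or 2 or stage 1.14 replicate 1 or 2, with adjusted p up to 0.0961). Of 4 tested genes in the salicylic acid defence list, BIK1, a kinase that acts downstream of immune receptors, rose by 0.43 ± 0.12 (limma adjusted p = 0.0371; not passed without stage 1.05 replicate 1 or 3 or any 1 of the 3 replicates of stage 1.14 or 1 of 3 Col-0 arrays, with adjusted p up to 0.105). PUB24, a ubiquitin ligase that dampens immune signalling, rose by 0.62 ± 0.18 (limma adjusted p = 0.0437; not passed without any 1 of the 3 replicates of stage 1.05 or stage 1.14 replicate 1 or 1 of 5 Col-0 arrays, with adjusted p up to 0.149). The list had no call without stage 1.14 replicate 1. Of 4 tested WRKY factors, WRKY47 rose with WRKY53, from 114, 102 and 102 to 149, 152 and 167 (log2 change 0.50 ± 0.11 SE, limma adjusted p = 0.016; not passed without stage 1.05 replicate 3, with adjusted p up to 0.0505), and the other 2 did not pass.

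The jasmonate and wound response list had 2 falls and no rise among 6 tested genes, where 4.46% of all probe sets fell, with a median of -0.65. It had 1 fall without stage 1.14 replicate 1. In Col-0 the list's median was 0.98, with 2 rises and 2 falls. THI2.2, a thionin, which is a small antimicrobial peptide, had 248, 167 and 370.2 at stage 1.05 and 38.5, 48.5 and 38.3 at stage 1.14. All 3 older rosettes were far below all the younger ones, and the call (log2 change -2.205 ± 0.27 SE, limma adjusted p = 0.000544) held whichever array was left out. MYC4, a bHLH factor of the jasmonate response, fell from 137, 111 and 88.8 to 33.7, 61.0 and 66.5 (log2 change -0.89 ± 0.24 SE, limma adjusted p = 0.0389; not passed without any 1 of the 3 replicates of stage 1.05 or stage 1.14 replicate 1 or 2 or 1 of 3 Col-0 arrays, with adjusted p up to 0.129). Its relative MYC3 had -0.12 ± 0.15 and did not pass. The defensin PDF1.2 had 19.3, 73.2 and 66.5 at stage 1.05 and 69.6, 12.0 and 18 at stage 1.14, with overlapping stages and no call (-0.55 ± 0.83, limma adjusted p = 0.705). PDF1.2b had -0.75 and PDF1.4 had 0.92, the only positive change of the list, and neither passed. THI2.2 and MYC4 also fell in Col-0, and neither passed for the interaction (limma adjusted p = 0.83 and 0.963). Of the 6 genes only MYC3 passed for the interaction (limma adjusted p = 0.0229). PDF1.2 and PDF1.2b had positive changes in Col-0 that did not pass there (limma adjusted p = 0.153 and 0.407).

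The flavonoid genes CHIL and UGT78D1 fell, but neither call held with every array left out in turn. All 6 tested genes of the flavonoid list had negative changes, with a median of -1.18, and 2 passed, where 4.46% of all probe sets fell. Without stage 1.14 replicate 1 none passed (median -0.98, with -2.23 in CHIL and -1.04 in UGT78D1). In Col-0 all 6 fell, with a median of -1.85, where 21% of all probe sets fell. CHIL, a chalcone isomerase-like protein that raises flavonoid output, had 389.8, 132 and 136 at stage 1.05 and 6.2, 61.4 and 9.5 at stage 1.14. Replicate 1 was the highest young rosette and the lowest older one (log2 change -2.57 ± 0.65 SE, limma adjusted p = 0.0297; not passed without stage 1.05 replicate 1 or 3 or stage 1.14 replicate 1 or 3, with adjusted p up to 0.108). UGT78D1, which adds rhamnose to flavonols, had 220.4, 94.9 and 156 at stage 1.05 and 42.1, 56.7 and 72.3 at stage 1.14 (log2 change -1.199 ± 0.33 SE, limma adjusted p = 0.0379; not passed without stage 1.05 replicate 1 or 3 or stage 1.14 replicate 1 or 2 or 1 of 3 Col-0 arrays, with adjusted p up to 0.131). UGT78D2 (-1.24), AT4G14090 (-1.17), DFR (-0.75) and UF3GT (-0.48) did not pass. Of the light signalling genes, HYH, the bZIP homologue of HY5, had 335, 107 and 108 at stage 1.05 and 7.3, 47.8 and 48.2 at stage 1.14 (log2 change -1.94 ± 0.53 SE, limma adjusted p = 0.0385; not passed without any 1 of the 3 replicates of stage 1.05 or stage 1.14 replicate 1 or 1 of 2 Col-0 arrays, with adjusted p up to 0.133). AFR, an F-box protein of far-red light signalling, had 399, 162 and 145 at stage 1.05 and 32.4, 44.4 and 58.8 at stage 1.14 (log2 change -1.92 ± 0.46 SE, limma adjusted p = 0.0224; not passed without stage 1.05 replicate 1 or stage 1.14 replicate 1, with adjusted p up to 0.0821). As with CHIL, replicate 1 gave the highest signal at stage 1.05 and the lowest at stage 1.14 in both.

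Chloroplast transcripts gave few calls and mostly small negative changes. PORB, an enzyme of the light-dependent step of chlorophyll synthesis, went the other way from most of its list. It had 258, 399.9 and 458 at stage 1.05 and 1359, 1732 and 1153 at stage 1.14, a 3.74-fold rise on the scale of signal plus 16 (log2 change 1.90 ± 0.32 SE, limma adjusted p = 0.00432), and the call held whichever array was left out. The other 7 tested genes of chlorophyll synthesis did not pass, from -0.67 in HEME2 to 0.19 in HEMA2. All 7 tested light harvesting and photosystem genes had negative changes, with a median of -0.55 (-0.34 without stage 1.14 replicate 1), and only LHCB4.2, an antenna protein of photosystem II, passed (log2 change -0.62 ± 0.15 SE, limma adjusted p = 0.0248; not passed without stage 1.05 replicate 1 or 3 or stage 1.14 replicate 3, with adjusted p up to 0.0942), with 3228, 2337 and 2794 at stage 1.05 and 1754, 1863 and 1759 at stage 1.14. After quantile normalization the change of LHCB4.2 was -0.26 (adjusted p = 0.12) and the list's median -0.19. The 4 tested Calvin cycle and photorespiration genes, RCA, SBPASE, PRK and HPR, had -0.44, -0.91, -0.67 and -0.73 and did not pass. Without stage 1.14 replicate 1 these were -0.41, -0.39, -0.25 and -0.34, and the list's median went from -0.70 to -0.37. Of 69 tested plastid-encoded genes 3 fell and none rose, a share like the 4.46% of all probe sets that fell, with a median of -0.29 that turned to 0.02 after quantile normalization. They were rpl22 (-1.02 ± 0.24, limma adjusted p = 0.0221) and rpl36 (-0.96 ± 0.24, 0.0283), both proteins of the plastid ribosome, and rpoA (-0.78 ± 0.22, 0.0443), a subunit of the plastid RNA polymerase. The rpl22 signal was 1497, 1028 and 992 at stage 1.05 and 593, 506 and 589.7 at stage 1.14. Of these rpl22 did not pass without stage 1.05 replicate 1 or stage 1.14 replicate 2, with adjusted p up to 0.0832, rpl36 did not pass without stage 1.05 replicate 1 or 2 or stage 1.14 replicate 2 or 3, with adjusted p up to 0.0949, and rpoA did not pass without any 1 of the 3 replicates of stage 1.05 or stage 1.14 replicate 1 or 2 or 1 of 3 Col-0 arrays, with adjusted p up to 0.154. After quantile normalization rpoA did not pass (adjusted p = 0.0789), while rpl22 (-0.87) and rpl36 (-0.93) did. The cRNA was primed with oligo-dT, and plastid transcripts mostly lack the poly(A) tail of nuclear mRNA; the part of this in their signals was not tested.

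A histone gene and regulators of the epidermis and of microtubules fell. All 8 tested genes for DNA replication, histones and mitosis had negative changes with a median of -0.30, and only the histone gene HTB4 passed, from 456, 438 and 366 to 324, 255 and 302 (log2 change -0.49 ± 0.14 SE, limma adjusted p = 0.0432). HTB4 did not pass without stage 1.05 replicate 1 or 2 or stage 1.14 replicate 2 or 3 or 1 of 5 Col-0 arrays, with adjusted p up to 0.129. Without stage 1.14 replicate 1 the list had 3 falls and a median of -0.44. Over all probe sets tested, 4.46% fell with all arrays, and 8.16% passed in either direction without that array. HTB1 had 307, 200 and 175 at stage 1.05 and 166, 92.4 and 140.0 at stage 1.14 (-0.70 ± 0.23, adjusted p = 0.0722). STOMAGEN, a secreted peptide from mesophyll that promotes the formation of stomata, had 290.1, 279.7 and 238 at stage 1.05 and 50.2, 105 and 116 at stage 1.14, so that every older rosette was far below every younger one (log2 change -1.48 ± 0.25 SE, limma adjusted p = 0.00404). The trichome regulators TRY (-0.74) and GIS (-0.97) did not pass. ATMYC1, a bHLH factor of trichome and root hair patterning, had 63.7, 65.0 and 65.1 at stage 1.05 and 25, 19.2 and 23.9 at stage 1.14, with nearly equal signals on the young rosettes (log2 change -1.06 ± 0.15 SE, limma adjusted p = 0.00121). SP1L4, of the SPIRAL1 family that acts on cortical microtubules, had 44.5, 76.0 and 58.5 at stage 1.05 and 14.5, 4.6 and 16.8 at stage 1.14 (log2 change -1.44 ± 0.21 SE, limma adjusted p = 0.00217). STOMAGEN, ATMYC1 and SP1L4 passed whichever array was left out.

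Cell wall genes gave 1 call, where 10.2% of all probe sets passed. Of 17 tested genes in the cell wall expansion list EXPB1, a beta-expansin, was the only one past the threshold, from 57.6, 43.2 and 48.7 to 24, 27.4 and 31.8 (log2 change -0.59 ± 0.13 SE, limma adjusted p = 0.0179; not passed without stage 1.05 replicate 1, with adjusted p up to 0.0656), and the list's median was -0.18. Changes of the others ranged from -0.59 in XTH16, a xyloglucan endotransglucosylase, to 0.52 in the expansin EXPA9. Of 7 tubulins TUB5 rose by 0.72 ± 0.20 (limma adjusted p = 0.0424; not passed without stage 1.05 replicate 1 or 2 or stage 1.14 replicate 1 or 2 or 1 of 4 Col-0 arrays, with adjusted p up to 0.144), and 6 did not pass. Over all probe sets tested, 5.78% rose.

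**Figure D3:**
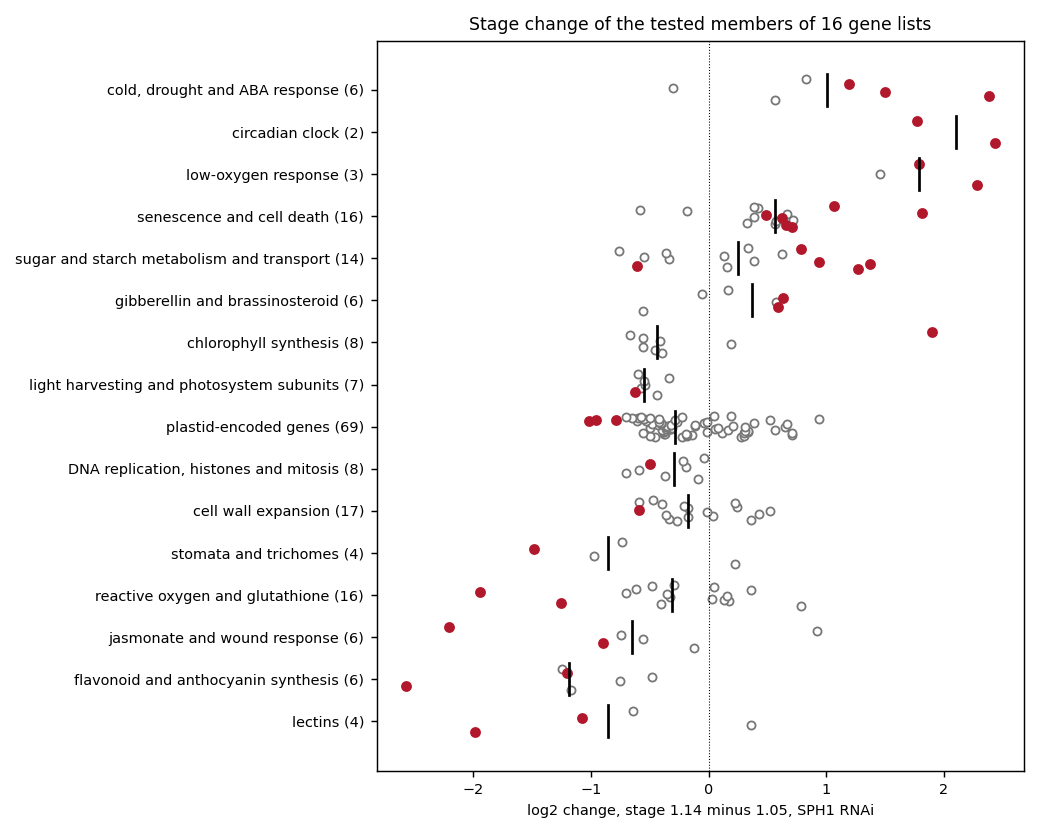
Points are the log2 changes from stage 1.05 to stage 1.14 in SPH1 RNAi of the tested genes of 16 lists, filled red where the gene passed, with a black bar at the list's median and the number of genes in brackets. Cold and drought, clock and senescence genes have 3, 2 and 6 rises, with 1 cold and 2 senescence genes to the left of 0, and flavonoid and lectin genes have 2 falls each.

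MSRB6 and GR1, which keep proteins and glutathione reduced, fell. They were 2 of 16 tested genes in the reactive oxygen and glutathione list, and none rose, where 4.46% of all probe sets fell and 5.78% rose. MSRB6, which repairs oxidised methionine, had 284, 166 and 203 at stage 1.05 and 21.1, 56.5 and 62.8 at stage 1.14 (log2 change -1.94 ± 0.27 SE, limma adjusted p = 0.00142). GR1, a glutathione reductase, had 584, 346 and 481 at stage 1.05 and 135, 227 and 202 at stage 1.14 (log2 change -1.25 ± 0.21 SE, limma adjusted p = 0.00469). In both genes replicate 1 was the highest young and the lowest older rosette, and both calls held whichever array was left out. The list's median of -0.31 was -0.02 without stage 1.14 replicate 1. AOR, a chloroplast enzyme that reduces reactive carbonyls, had 1229.9, 1415 and 1549 at stage 1.05 and 225, 644 and 573 at stage 1.14 (log2 change -1.63 ± 0.33 SE, limma adjusted p = 0.0117). CYTC-2, a cytochrome c of mitochondrial respiration, had 342, 286 and 324 at stage 1.05 and 80.5, 135 and 129 at stage 1.14 (log2 change -1.37 ± 0.21 SE, limma adjusted p = 0.00242). Both passed whichever array was left out. The chaperonin subunit Cpn60beta2 had 597, 1818 and 1586 at stage 1.05 and 212, 448 and 477 at stage 1.14 (log2 change -1.70 ± 0.38 SE, limma adjusted p = 0.0179; not passed without stage 1.05 replicate 2 or 3, with adjusted p up to 0.0642). Hsp70-2, a chaperone, had 707, 580.0 and 744 at stage 1.05 and 187, 428 and 355 at stage 1.14 (log2 change -1.10 ± 0.29 SE, limma adjusted p = 0.0334; not passed without any 1 of the 3 replicates of stage 1.05 or stage 1.14 replicate 1, with adjusted p up to 0.0931). CaS, a calcium sensing protein of the chloroplast, fell by 1.04 on the log2 scale (limma adjusted p = 0.0424; not passed without any 1 of the 3 replicates of stage 1.05 or stage 1.14 replicate 1 or 1 of 5 Col-0 arrays, with adjusted p up to 0.13). Without stage 1.14 replicate 1 its change was -0.62, and it did not pass after quantile normalization (adjusted p = 0.0752).

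Jacalin-related lectins, which bind sugars and of which several form complexes with the beta-glucosidase PYK10, fell in 2 of 4 tested members, where 4.46% of all probe sets fell. JAL22 had 116, 85.7 and 99.7 at stage 1.05 and 30.0, 7.1 and 7.8 at stage 1.14, and the older replicates 2 and 3 were the lowest (log2 change -1.98 ± 0.25 SE, limma adjusted p = 0.000773). JAL33 had 127, 82.5 and 115 at stage 1.05 and 68.7, 32.8 and 31.8 at stage 1.14 (log2 change -1.07 ± 0.26 SE, limma adjusted p = 0.0268; not passed without stage 1.05 replicate 1 or 3 or stage 1.14 replicate 2 or 3, with adjusted p up to 0.0913). JAL34 had -0.64 ± 0.23 and JAL23 0.36 ± 0.21, and neither passed. PYK10, the only tested root marker and the beta-glucosidase of endoplasmic reticulum bodies, had 531, 288 and 382 at stage 1.05 and 355, 39.4 and 61.3 at stage 1.14. On stage 1.14 replicate 1 it was within the range of the young rosettes, and on replicates 2 and 3 it was far lower (log2 change -1.79 ± 0.53 SE, limma adjusted p = 0.0487; change -2.63 without replicate 1). PYK10 did not pass without any 1 of the 3 replicates of stage 1.05 or stage 1.14 replicate 2 or 3 or 1 of 6 Col-0 arrays, with adjusted p up to 0.149. Of the 14 root marker loci 4 had a probe set. EXPA7, EXPA18 and AT5G19890 had no more than 32.7 on any array. The summed signal of the 4 was 356 to 602 at stage 1.05 and 118, 135 and 415 at stage 1.14, with 415 on replicate 1 (exact permutation p = 0.2). Whether root tissue has a part in the fall of the lectins was not tested. The shoot apex markers CLV3 and UFO had at most 4.7 on every array.

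Several genes of metabolism, transport and cell structure rose steadily. BGLU44, TET3, WLIM1, CHX16, FDH, UGT72E1, APS4 and AT5G61590 all passed whichever array was left out. BGLU44, a beta-glucosidase, had 172, 447 and 349 at stage 1.05 and 986, 1193 and 926 at stage 1.14 (log2 change 1.72 ± 0.28 SE, limma adjusted p = 0.00376). TET3, a tetraspanin of the plasma membrane, had 95.4, 94.7 and 115 at stage 1.05 and 259, 347 and 283 at stage 1.14 (log2 change 1.40 ± 0.17 SE, limma adjusted p = 0.000536). WLIM1, which bundles actin filaments, had 103, 112 and 114 at stage 1.05 and 378, 300.1 and 273 at stage 1.14 (log2 change 1.39 ± 0.15 SE, limma adjusted p = 0.000221). CHX16, a cation/proton exchanger, had 1.7, 17 and 4.8 at stage 1.05 and 111, 76.5 and 87.3 at stage 1.14 (log2 change 2.21 ± 0.23 SE, limma adjusted p = 0.000167). Its young signals were below the filter's mean of 32, so CHX16 was tested only through the other arrays, and its rise is not independent of the filter. FDH, the mitochondrial formate dehydrogenase, had 790.4, 325 and 353 at stage 1.14, with replicate 1 far above the others, against 155, 145 and 170.4 at stage 1.05 (log2 change 1.44 ± 0.30 SE, limma adjusted p = 0.013; 1.04 without replicate 1). UGT72E1, which glucosylates lignin precursors, rose by 1.28 ± 0.25 (limma adjusted p = 0.00922), and APS4, an ATP sulfurylase of sulphate assimilation, by 0.82 ± 0.17 (limma adjusted p = 0.0113). AT5G61590, listed as DEWAX, a transcription factor that lowers wax synthesis, had 137, 143 and 95.7 at stage 1.05 and 845, 522 and 544 at stage 1.14 (log2 change 2.19 ± 0.37 SE, limma adjusted p = 0.00432). Its list of cuticle and wax genes held 3 others that were tested, and none of these passed. CCOAMT, a caffeoyl-CoA methyltransferase, had 20.4, 28.8 and 32 at stage 1.05 and 305, 87.1 and 85.6 at stage 1.14 (log2 change 1.81 ± 0.38 SE, limma adjusted p = 0.0136; not passed without stage 1.05 replicate 1, with adjusted p up to 0.0513). Without replicate 1 of stage 1.14, the highest array, its change was 1.26. The beta-glucosidase BGLU40 fell, from 446, 291 and 283 to 120.3, 162 and 186 (log2 change -1.04 ± 0.19 SE, limma adjusted p = 0.0068). Of 16 tested UDP-glycosyltransferases, 3 rose (UGT72E1, UGT71C5 and SGT) and 2 fell (UGT78D1 and UGT74D1, the latter with -1.16, limma adjusted p = 0.0161). Over all probe sets tested, 5.78% rose and 4.46% fell. UGT71C5 did not pass without any 1 of the 3 replicates of stage 1.05 or stage 1.14 replicate 1 or 3 or 1 of 3 Col-0 arrays, with adjusted p up to 0.116, SGT did not pass without any 1 of the 3 replicates of stage 1.05 or any 1 of the 3 replicates of stage 1.14 or 1 of 4 Col-0 arrays, with adjusted p up to 0.117, and UGT74D1 did not pass without stage 1.05 replicate 1, with adjusted p up to 0.0609.

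Among probe sets that passed with exactly 1 gene and no overlap between stages, the largest changes were mostly in loci without a symbol in the annotation used here. The largest rise over all probe sets that passed was 4.66, outside this set. Within it AT1G11210 rose most, from 6.0, 4.1 and 4.9 to 402, 209 and 201 (log2 change 3.70 ± 0.21 SE, limma adjusted p = 1.23e-06). AT2G39920 had 4.4, 39.2 and 21.3 at stage 1.05 and 152, 294 and 294 at stage 1.14 (log2 change 2.86 ± 0.33 SE, limma adjusted p = 0.000314), and AT4G30650 had 87.7, 101 and 86.5 at stage 1.05 and 537, 714 and 660.1 at stage 1.14 (log2 change 2.59 ± 0.21 SE, limma adjusted p = 2.51e-05). In all 3 the stages lay far apart, and each passed whichever array was left out. AT2G15960 had 45.8, 132 and 79.6 at stage 1.05 and 2021, 283 and 421 at stage 1.14, with replicate 1 of stage 1.14 several times above the others (change 2.75, and 1.92 without it; not passed without stage 1.05 replicate 1, with adjusted p up to 0.05). AT1G56300 had 9.6, 139.9 and 104 at stage 1.05 and 450, 567 and 465 at stage 1.14, where replicate 1 of stage 1.05 was the one that stood apart (log2 change 2.698 ± 0.48 SE, limma adjusted p = 0.00634). The remaining large rises were AT3G62550 (2.58), AT4G30660 (2.39), AT5G39520 (2.36), AT1G67865 (2.27) and AT1G30700 (2.24), with limma adjusted p between 0.000107 and 0.00339. Among the falls AT3G28270 was the largest, with 817, 511 and 565 at stage 1.05 and 1.4, 64.2 and 57.5 at stage 1.14 (log2 change -3.76 ± 0.73 SE, limma adjusted p = 0.00941), and -3.05 without replicate 1 of stage 1.14, the lowest array. AT3G28220 had 260.1, 275 and 226 at stage 1.05 and 21.6, 26.8 and 34.7 at stage 1.14 (log2 change -2.63 ± 0.14 SE, limma adjusted p = 1.01e-06), and AT5G57785 had 247, 257 and 294 at stage 1.05 and 49.7, 49.9 and 32.8 at stage 1.14 (log2 change -2.24 ± 0.14 SE, limma adjusted p = 2.25e-06). These had the smallest adjusted p of the 15 falls. AT5G12110 (-2.94), AT1G60590 (-2.25), the GDSL-type lipase AT3G48460 (-2.23), AT1G55960 (-2.19), AT2G27420 (-2.13) and AT1G13650 (-2.01) completed the falls, with limma adjusted p between 0.00254 and 0.022. AT5G12110 did not pass without stage 1.05 replicate 2 or 3, with adjusted p up to 0.0618, and AT2G27420 did not pass without stage 1.05 replicate 1, with adjusted p up to 0.0581. AT1G30700 had a mean of 22.4 over the other 11 arrays, so stage 1.14 replicate 1 brought it into the test. Of the 15 largest rises 14 also passed without stage 1.14 replicate 1, CCL being the exception. The probe sets tested were kept the same there, so the 14 include AT1G33055 and AT1G30700. Without that array these would not have been tested, and their calls add no support. Of the 15 largest falls 11 did, and CHIL, AT1G55960, HYH and AFR did not (adjusted p between 0.0547 and 0.104).

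**Figure D4:**
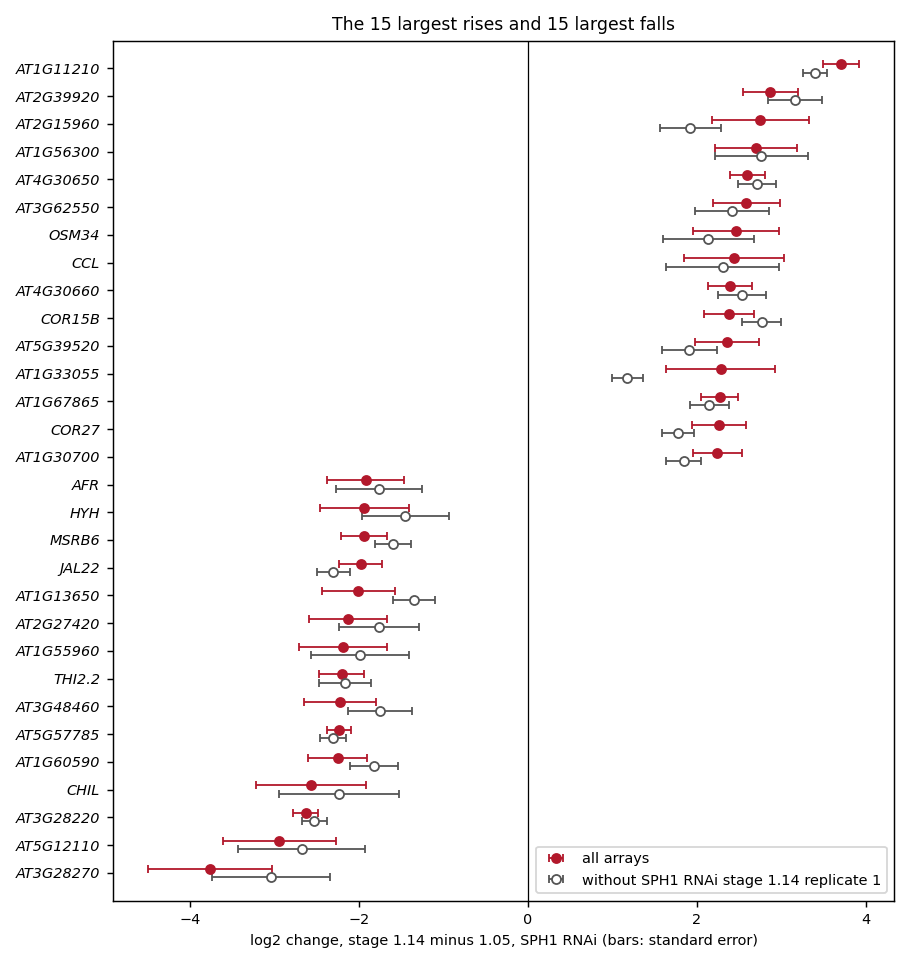
Points give the log2 change from stage 1.05 to stage 1.14 in SPH1 RNAi, with its standard error, with all arrays (filled) and without stage 1.14 replicate 1 (open). Shown are the 15 genes with the largest rise and the 15 with the largest fall among probe sets with 1 gene and no overlap between stages. No change turned direction without that array; AT1G33055 and AT1G30700 had a mean signal of at least 32 only with it.

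Among probe sets with 1 gene that changed at least 2-fold, the brightest on the SPH1 RNAi arrays were AT1G13930, CCL, AILP1, AT4G39200 and AT3G09440. AILP1, which is named for its induction by aluminium, had 745, 955 and 1096 at stage 1.05 and 2126, 2029 and 1670.4 at stage 1.14 (log2 change 1.06 ± 0.21 SE, limma adjusted p = 0.011) and passed whichever array was left out. AT1G13930 had 490.0, 1143 and 1115 at stage 1.05 and 1285, 2529 and 2234 at stage 1.14 (log2 change 1.16 ± 0.33 SE, limma adjusted p = 0.0414; not passed without stage 1.05 replicate 1 or 3 or stage 1.14 replicate 2 or 3 or 1 of 4 Col-0 arrays, with adjusted p up to 0.131). AT4G39200 fell, with 1088, 3144 and 1771 at stage 1.05 and 962, 759 and 578 at stage 1.14 and the highest signal on stage 1.05 replicate 2 (log2 change -1.26 ± 0.36 SE, limma adjusted p = 0.0432; not passed without stage 1.05 replicate 2 or 3 or stage 1.14 replicate 2 or 3 or 1 of 4 Col-0 arrays, with adjusted p up to 0.129). AT3G09440 had 1799, 1355 and 1674 at stage 1.05 and 249, 697 and 604 at stage 1.14, with replicate 1 the highest young and the lowest older rosette (log2 change -1.72 ± 0.42 SE, limma adjusted p = 0.0258; not passed without stage 1.05 replicate 1 or 3 or stage 1.14 replicate 1, with adjusted p up to 0.0798).

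The same stage change reached more probe sets in Col-0. There 5919 passed (44.6%), 3139 of them higher (23.7%) and 2780 lower (21%) at stage 1.14, against 1358 in SPH1 RNAi. The standard deviation of the log2 changes over all probe sets tested was 0.82 in Col-0 and reached 0.49 in SPH1 RNAi (0.46 without stage 1.14 replicate 1). The changes of the 2 genotypes, which share no array, correlated across the 13263 probe sets with r = 0.794 (0.789 without that array); probe sets are not independent, so no p is given. Of the SPH1 RNAi calls, 1239 were also calls in Col-0, which is 91.2% of the former and 20.9% of the latter, and 1236 of these went the same way. Over all probe sets tested, 78.6% had changes of the same sign in both genotypes. The change was in the same direction and larger in Col-0 for 1055 of the 1358. The median standard deviation within a group was 0.19 and 0.22 on the log2 scale at stages 1.05 and 1.14 in SPH1 RNAi, and 0.17 and 0.16 in Col-0. Without replicate 1 of each stage it was 0.13 and 0.14 in SPH1 RNAi. A median standard deviation from fewer arrays tends to come out lower, and no array was left out in Col-0. These values therefore cannot be set against those of Col-0. In Col-0 the actin 3′ minus 5′ difference was 1.85 ± 0.41 at stage 1.05 and 0.996 ± 0.075 at stage 1.14 (SD, n = 3, exact permutation p = 0.1), and the summed root marker signal was 528 ± 124 and 88.9 ± 5.4 (exact permutation p = 0.1). Both separated the Col-0 stages without overlap, and their part in the larger number of Col-0 calls was not tested. In the lists, the cold, drought and ABA genes had a median of 2.71 in Col-0 against 1.01 in SPH1 RNAi, and the senescence genes 0.99 and 0.57. The division genes had -1.01 and -0.30, with 7 falls of 8 in Col-0, and the cell wall genes -0.71 and -0.18, with 9 falls and 2 rises in Col-0.

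The difference itself was tested by the interaction of genotype and stage. It passed for 446 probe sets (3.36%). In 365 of them the SPH1 RNAi change had the same direction as the Col-0 change and was smaller, in 1 it was larger, and in 80 the directions were opposite. The gap between the genotypes was wider at stage 1.05 in 224 of the 446 and wider at stage 1.14 in 222. The number of calls ranged from 119, without Col-0 stage 1.05 replicate 2, to 705, without SPH1 RNAi stage 1.05 replicate 1, and was 131 without SPH1 RNAi stage 1.05 replicate 2.

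COR47 showed the smaller change clearly. It had 130.1, 126 and 137 at stage 1.05 and 1205, 1615 and 1141 at stage 1.14 in Col-0, against 144, 170.3 and 172 at stage 1.05 and 619.5, 406 and 453 at stage 1.14 in SPH1 RNAi, so young rosettes were close and older ones differed (interaction -1.67 ± 0.25 SE on the log2 scale, limma adjusted p = 0.00703). AT3G25610 differed at the other stage, with 5.0, 1.6 and 2.9 at stage 1.05 and 77.2, 132 and 96.5 at stage 1.14 in Col-0 and 46.3, 52.2 and 34.6 at stage 1.05 and 86.4, 87.3 and 86.5 at stage 1.14 in SPH1 RNAi (interaction -1.82 ± 0.24, limma adjusted p = 0.00533). In AT3G44590, AT2G32060 and AT5G22440 the log2 change was -2.08, -1.83 and -2.11 in Col-0 against -0.60, -0.53 and -0.82 in SPH1 RNAi. AT3G44590 had 876, 999.5 and 962 at stage 1.05 and 243, 166 and 233 at stage 1.14 in Col-0 and 841, 738 and 845 at stage 1.05 and 538, 488 and 553 at stage 1.14 in SPH1 RNAi. AT1G07070 (-0.66 in SPH1 RNAi, -1.81 in Col-0), the cytochrome P450 AT3G44970 (-0.63, -2.01) and AT1G70420 (0.96, 2.71) completed the 8 genes with the smallest interaction p among those that also passed for stage in SPH1 RNAi, with adjusted p up to 0.0137. These 8 interaction calls held whichever single array of the 12 was left out. Of their stage calls in SPH1 RNAi, those of COR47, AT5G22440 and AT1G07070 held as well, and 5 did not. AT3G44590 did not pass without stage 1.05 replicate 1 or 3 or stage 1.14 replicate 2 or 3, with adjusted p up to 0.0886, and AT2G32060 did not pass without stage 1.05 replicate 1 or 3 or stage 1.14 replicate 2 or 3 or 1 of 4 Col-0 arrays, with adjusted p up to 0.108. AT3G44970 did not pass without stage 1.05 replicate 1 or 3 or stage 1.14 replicate 1 or 2, with adjusted p up to 0.0946. AT1G70420 did not pass without stage 1.05 replicate 1 or stage 1.14 replicate 2 or 3, with adjusted p up to 0.0673, and AT3G25610 did not pass without stage 1.05 replicate 3, with adjusted p up to 0.0608. LTI30 (1.19 and 2.36, interaction adjusted p = 0.0339) and APG8H (0.65 and 1.63, 0.0345) passed too. With each of the 12 arrays left out in turn, they passed in 4 and 3 cases, with adjusted p up to 0.0879. COR15B, GI, GAMMA-VPE, PORB, STOMAGEN and THI2.2 did not pass for the interaction (adjusted p from 0.0648 to 0.83), which does not show that their changes were equal.

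AT3G28500 was the only probe set past the interaction threshold whose change was in the same direction and larger in SPH1 RNAi. It rose from 35.6, 44.8 and 46.3 to 242, 145 and 208 in SPH1 RNAi (log2 change 1.86 ± 0.19 SE, limma adjusted p = 0.000168), while Col-0 had 44.0, 39.2 and 53.2 at stage 1.05 and 78.7, 48.1 and 58.1 at stage 1.14 (0.32; interaction 1.53 ± 0.27, adjusted p = 0.0139). All 3 older SPH1 RNAi rosettes lay above every other array, and the interaction held whichever single array was left out. Of the 119 probe sets that passed in SPH1 RNAi and not in Col-0, 4 passed for the interaction: AT3G28500 and 3 that are unnamed here. Both genotypes passed in opposite directions for 3 probe sets, 1 of them unnamed here. AT5G41670 rose from 105, 124 and 119 to 198, 188 and 180.3 in SPH1 RNAi and had 275, 193 and 218 at stage 1.05 and 151, 176 and 164 at stage 1.14 in Col-0 (interaction 1.06 ± 0.20, adjusted p = 0.0179; the rise did not pass without stage 1.05 replicate 1, with adjusted p up to 0.0614). AT3G61820 rose by 0.69 ± 0.18 in SPH1 RNAi and had -0.52 in Col-0 (interaction adjusted p = 0.0298; the rise did not pass without stage 1.05 replicate 1 or 3 or stage 1.14 replicate 1 or 2 or 1 of 1 Col-0 arrays, with adjusted p up to 0.116), and the interaction passed in 4 of 12 cases with 1 array left out (adjusted p up to 0.0592). These 3 genes were named after their values were seen. AT1G33055, which had 3.4, 3.1 and 2.7 at stage 1.05 and 4.7, 3.4 and 3.9 at stage 1.14 in Col-0, did not pass for the interaction (2.21 ± 0.91, adjusted p = 0.203).

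**Figure D5:**
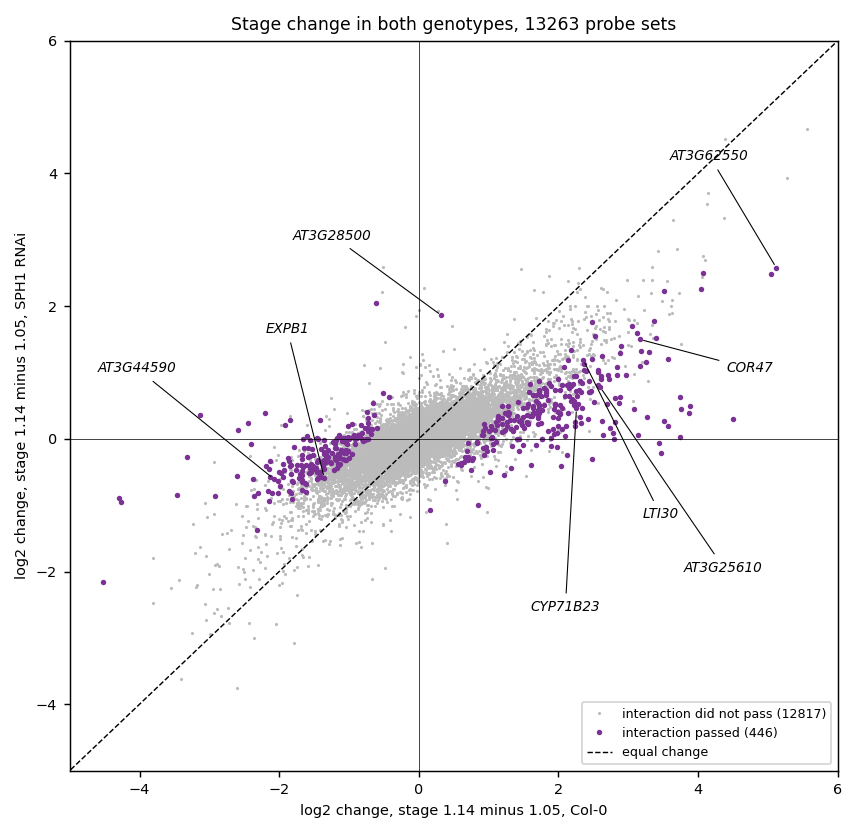
Each point is 1 of the 13263 probe sets, with the log2 change from stage 1.05 to stage 1.14 in Col-0 on the horizontal axis and in SPH1 RNAi on the vertical axis; purple points are the 446 that passed for the interaction, and the dashed line marks equal changes. Most purple points lie closer to the horizontal axis than the dashed line does, 365 of them on the same side of 0 in both genotypes, and AT3G28500 lies above the line.

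Of 43 lists and families with a tested gene, 16 gave no call in SPH1 RNAi, where 10.2% of all probe sets passed. None of 6 tested genes for leaf growth, polarity and identity passed, with a median of -0.08, nor any of 6 auxin response genes (-0.37), 4 flowering genes (-0.01), 3 cytokinin response genes (-0.07), 4 glucosinolate genes (0.10), 3 calcium-binding EF-hand proteins (0.47) or 10 cytochromes P450 with a symbol (0.20). A gene that misses the threshold is not shown to be level between the stages. In simulated data of the same size the test found 74.6% of log2 changes of 1 and 96.2% of changes of 2. Smaller changes were not simulated. Fewer probe sets were changed there than passed in the real data, the spreads were shuffled among probe sets, and all arrays had equal noise. These shares therefore do not give the power for the genes of these lists.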

How the data were processed

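RNA of pooled rosette leaves was measured on 1-colour ATH1 arrays as biotin-labelled cRNA, per the labels' protocols. The deposited values are 1 linear intensity per probe set and array, and they had a mean of 100.01 on every array after 2% of probe sets were trimmed at each end, so the authors had brought the arrays to a common level; the sources used here do not name the summarisation software.

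Of 22810 probe sets, 64 controls were left out, and 13263 with a mean of at least 32 over the 12 arrays were tested. A gene that was dim at 1 stage could pass this filter through the arrays of the other stage. The offset of 16 was added before log2, so fold changes of dim genes are understated. A model of 4 groups of 3 arrays with 8 residual degrees of freedom was fitted with lmFit and eBayes (trend) in limma 3.58.1 (R 4.3.3), with Benjamini-Hochberg adjustment over all tested probe sets. Contrasts were the stage change in SPH1 RNAi, in Col-0, and their difference, the interaction. Exact permutation tests used scipy 1.17.1 (Python 3.11.15), with pandas 2.3.3 for tables. The model was tested on simulated data, with 5.64% of calls false. These data had independent noise of the same spread on all arrays, unlike the real ones, so the real share may differ.

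Gene names came from the platform annotation, updated through RefSeq gene tables: 7095 of the tested probe sets have 1 gene, 267 several and 5901 are unnamed here. Members and lists were chosen with earlier results of these data known. Named genes were the 15 largest non-overlapping rises and 15 largest falls that passed and have 1 gene, up to 6 members per list (those that passed first, then the brightest), the 8 genes with the smallest interaction p that also passed for stage, and the 5 brightest with changes of at least 2-fold. The 20 largest rises and falls with a gene symbol and 3 further genes were added after values were seen. Alternatives were the offset, the filter, quantile normalization, array weights, the eBayes trend, the replicate block, other sets of arrays and each array left out in turn.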

Additional observations from a re-analysis of the deposited data

Results flagged for a closer look

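For 21 of the 219 genes with values here, the change from stage 1.05 to stage 1.14 differed between SPH1 RNAi and Col-0 by the interaction test at a limma adjusted p under 0.05. The values are the SPH1 RNAi change minus the Col-0 change on the log2 scale. The genes were picked by size or by list, so their number says nothing of the whole, where 3.36% of probe sets passed.

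In 9 genes that rose in Col-0 and had a smaller positive change in SPH1 RNAi the difference was negative. It was -2.54 in AT3G62550, -1.82 in AT3G25610, -1.798 in CYP71B23, -1.75 in AT1G70420, -1.67 in COR47 and -1.28 in ACA.l. It was -1.17 in LTI30, -0.98 in APG8H and -0.77 in WRKY47. In PMEPCRF and MYC3 the difference was -1.21 and -1.09, with a positive change in Col-0 and a negative one that did not pass in SPH1 RNAi.

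The difference was positive where Col-0 fell more. It was 0.76 in EXPB1, 1.15 in AT1G07070, 1.29 in AT5G22440, 1.297 in AT2G32060, 1.38 in AT3G44970 and 1.48 in AT3G44590. In GH9C2 (1.18), AT5G41670 (1.06) and AT3G61820 (1.21) the change was negative in Col-0 and positive in SPH1 RNAi, where GH9C2 did not pass. AT3G28500 had a difference of 1.53, with the larger rise in SPH1 RNAi.

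With each of the 12 arrays left out in turn, 11 of the 21 passed every time. PMEPCRF and MYC3 passed in 10 cases, WRKY47 in 8, ACA.l in 6, AT3G62550, LTI30, GH9C2 and AT3G61820 in 4, APG8H in 3 and EXPB1 in 2. No group has more than 3 arrays, so no single array was tested as an outlier.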

How the results depend on the processing

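The count of 1358 probe sets for the stage change in SPH1 RNAi rests on the spread of all 12 arrays. With the 6 SPH1 RNAi arrays alone it was 462, and 774 with those arrays without stage 1.14 replicate 1, an alternative chosen after seeing the data. Without the 2 repeated hybridisations it was 2152, a fit that keeps only replicate 1 at stage 1.14, assumed to vary like the other groups. With single arrays left out it ranged from 669 to 1501, with 669 without stage 1.05 replicate 1 and 762 without stage 1.05 replicate 3. The other alternatives gave 943 to 1788. The interaction count of 446 was 236 with no filter on low signals, 2137 with array weights (0.26 for stage 1.14 replicate 1) and 856 without the repeated hybridisations, and ranged from 119 to 705 with single arrays left out. The weight of 0.26 was on the SPH1 RNAi array. The largest weight was 6.04, on Col-0 stage 1.14 replicate 3, against 1.40 and 0.45 on replicates 1 and 2 of that group. With array weights the Col-0 mean at stage 1.14 therefore rests mostly on 1 array. The Col-0 count of 5919 ranged from 4665 to 7916 over all alternatives and from 4665 to 6439 with single arrays left out. The causes of these differences were not tested. In the fits with fewer arrays, the number of arrays and which arrays were kept changed together.

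The replicate numbers were not taken to pair the arrays, since in no pair of groups did all 3 same-numbered arrays deviate together with a correlation over 0.1. For the 2 stages of SPH1 RNAi it was 0.01, -0.18 and -0.15, and for the 2 genotypes at stage 1.14 it was 0.49, 0.36 and -0.25. Among replicate 1 arrays, SPH1 RNAi at stage 1.14 also had 0.30 with Col-0 at stage 1.05, and the Col-0 stages had 0.23. Replicate 1 of SPH1 RNAi at stage 1.05 had 0.03 and 0.02 with those of Col-0 at stages 1.05 and 1.14. Whether replicate 1 arrays share a batch was not tested. With a replicate block the counts were 1362, 523 for the interaction and 5941 for Col-0, and 6 of the 100 named genes that passed no longer did.

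Of the comparisons of named genes with an alternative none reversed, 3302 kept their side of the threshold, 320 lost it and 69 gained it, and 44 of the 100 genes that passed did so under every alternative. Quantile normalization ended 8 calls (PYK10, AT4G39200, CaS, rpoA, LHCB4.2, AT2G32060, ATG8H and AT1G33055) and moved list medians to -0.19 for light harvesting, -0.35 for the Calvin cycle and 0.02 for plastid-encoded genes. The number of arrays, 3 a group, limits the precision of every value.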
